A study of Mus musculus with 28 samples.

Results

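Osteoblast cultures of a mouse cranial neural crest line were compared with proliferating cultures of the same line, both kept at 0.5% O2, across all genes. The comparison rests on 6 of the 28 RNA sequencing libraries of the series, 3 from each kind of culture, chosen by their labels and not by any measured value. O9-1 cells are multipotent and were isolated from mouse cranial neural crest, a population of the embryo that gives rise to most of the bone and cartilage of the face. The proliferating cells were kept in DMEM conditioned by STO feeder cells, with 15% fetal calf serum, 25 ng/ml bFGF, 5 ng/ml LIF and 55 µM beta-mercaptoethanol, and the labels give no duration for them. The osteoblast cultures spent 10 days in alpha-MEM with 10% fetal calf serum, 10 mM beta-glycerophosphate, 0.1 µM dexamethasone and 100 ng/ml BMP-2. Both groups therefore share the cell line and the low oxygen, and they differ at once in base medium, serum, growth factors, dexamethasone and time, whose parts in any difference cannot be told apart. All cultures come from a single line, and the labels do not say whether replicates were separate cultures, so p-values measure only the spread between these libraries, which may be technical. Some levels are also given for chondrocyte cultures, whose chondrogenic medium listed 5% serum. Others are from smooth muscle cultures, which spent 3 days in a medium listed with 10% serum and without BMP-2 or dexamethasone.

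Osteoblasts are the cells that lay down bone. The transcription factors Runx2 and Sp7 drive their differentiation, and the cells then secrete a matrix of type I collagen, which is mineralised with the help of alkaline phosphatase (Alpl) and acidic proteins such as bone sialoprotein (Ibsp). In the skull and face this happens directly in neural crest mesenchyme, without a cartilage template. Beta-glycerophosphate supplies phosphate, dexamethasone acts through the glucocorticoid receptor, and BMP-2 acts through Smad proteins, so osteogenic media of this kind are also known to switch on the direct targets of these additives.

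The 6 libraries held 23894399 to 26680081 counts in proliferating and 25969632 to 29675404 in osteoblast cultures, and mitochondrial genes took 0.766% to 0.831% and 0.573% to 0.720% of them. Values below are CPM, the counts of a gene per 1e+06 counts of its library, after TMM scaling, which corrects library totals for genes that take an unusual share of them. Changes are log2 fold changes of osteoblast over proliferating cultures, and a gene is said to have risen or fallen where edgeR's quasi-likelihood test gave a Benjamini-Hochberg adjusted p under 0.05 over the 14338 genes tested. By that rule 10227 genes changed, which is 71.3% of those tested, with 5193 higher (36.2%) and 5034 lower (35.1%). A log2 change of at least 1 was also met by 4912 genes (34.3%), 2480 higher and 2432 lower. Libraries of the groups did not overlap in 74.8% of the tested genes, with osteoblast cultures above in 37.7% and below in 37.1%. With so many genes past the threshold, a change is the usual state of a gene in this comparison, and the counts of each gene group below are to be read against these shares. A gene read in osteoblast libraries alone enters the test through them and can only rise, so such counts describe the tested genes and not the whole list. When library totals alone set the scale, the median of all genes moved from 0.001 to -0.2282 on the log2 scale, and 38.2% of the called genes were higher in place of 50.8%. The first principal component held 99.6% of the variance of the 500 most variable genes and separated the groups.

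The osteoblast label was first checked against Sp7, Alpl and Ibsp. Sp7 (ENSMUSG00000060284, chr15:102356606-102367182 in mm10), the zinc finger factor required for bone formation, had 0.208, 0.0771 and 0.0727 CPM in the proliferating libraries and 103, 103 and 102 CPM in the osteoblast libraries. It rose by 9.67 on the log2 scale (SE 0.17, edgeR adjusted p = 6.82e-16). Alpl (ENSMUSG00000028766, chr4:137741733-137796384), the phosphatase that frees phosphate for mineral, had 0.0347, 0 and 0 CPM against 72.7, 77.2 and 88.5 CPM. Its proliferating libraries held 1 count in all, so the ratio of 6550 has a 95% counting interval from 1180 to 259000. Ibsp (ENSMUSG00000029306, chr5:104299171-104311469), a protein that nucleates mineral in bone matrix, had no count in the proliferating libraries and 80.7, 74.4 and 67.4 CPM in the osteoblast libraries, at least 2030-fold higher against a floor of 3 counts over the group. All 3 markers were thus near or at 0 in every proliferating library and well above it in every osteoblast library. These are bulk samples, in which more cells of a type and more RNA per cell cannot be told apart.

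**Figure D1:**
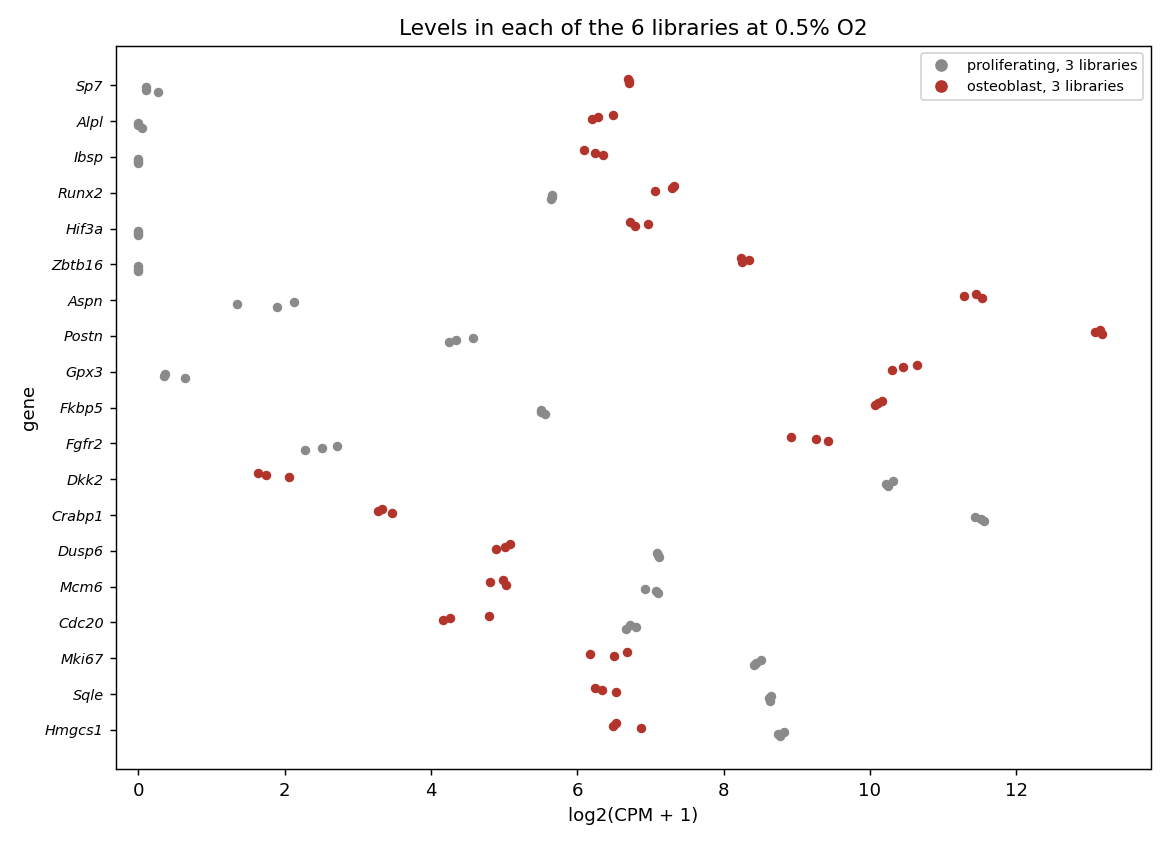
Log2(CPM + 1) of marker and other named genes in each of the 3 proliferating and 3 osteoblast libraries at 0.5% O2, with 1 point per library. Sp7, Alpl and Ibsp sit at the bottom of the axis in the proliferating libraries and between 67.4 and 103 CPM in the osteoblast libraries.

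Of 16 listed transcription factors of the osteoblast lineage, 15 could be tested, 13 rose and 1 fell, with a median change of 2.49 beside 0.001 over all genes. Runx2 (ENSMUSG00000039153, chr17:44495987-44814797), the master regulator of the lineage, was already present in proliferating cells at 48.9, 49.5 and 49.6 CPM. Its osteoblast libraries had 133, 156 and 159.5 CPM, a rise of 1.60 on the log2 scale (SE 0.08, edgeR adjusted p = 8.13e-11) with no overlap between the groups. Its relatives went separate ways. Runx1, which acts in blood formation and early cartilage, fell by 2.12 on the log2 scale (SE 0.09, edgeR adjusted p = 1.43e-11), from 63.0 ± 1.08 to 14.5 ± 1.14 CPM (mean ± SD, n = 3). Runx3 rose by 1.08, while Cbfb, the partner that all Runx factors bind, had 93.0 ± 5.00 against 83.7 ± 7.33 CPM with overlapping libraries (edgeR adjusted p = 0.0989, or 0.0267 as lower without the osteoblast library numbered 1). The homeobox factors that BMP signals induce changed more. Msx2, which guides skull bone growth, went from 0.0347, 0.385 and 0.218 to 29.5, 30.3 and 32.3 CPM, and Dlx5 from 0.0695, 0.116 and 0 to 9.20, 8.97 and 10.8 CPM. Mef2c rose by 2.56, Foxo1 by 2.02 and Tcf7 by 2.49. Atf4, which supports amino acid supply for collagen synthesis, rose by 0.60. Zbtb16 (also called PLZF) had no count in proliferating libraries and 305, 323 and 302 CPM in osteoblast libraries, at least 8510-fold higher. This factor is a known glucocorticoid target as well as an osteogenic one.

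**Figure D2:**
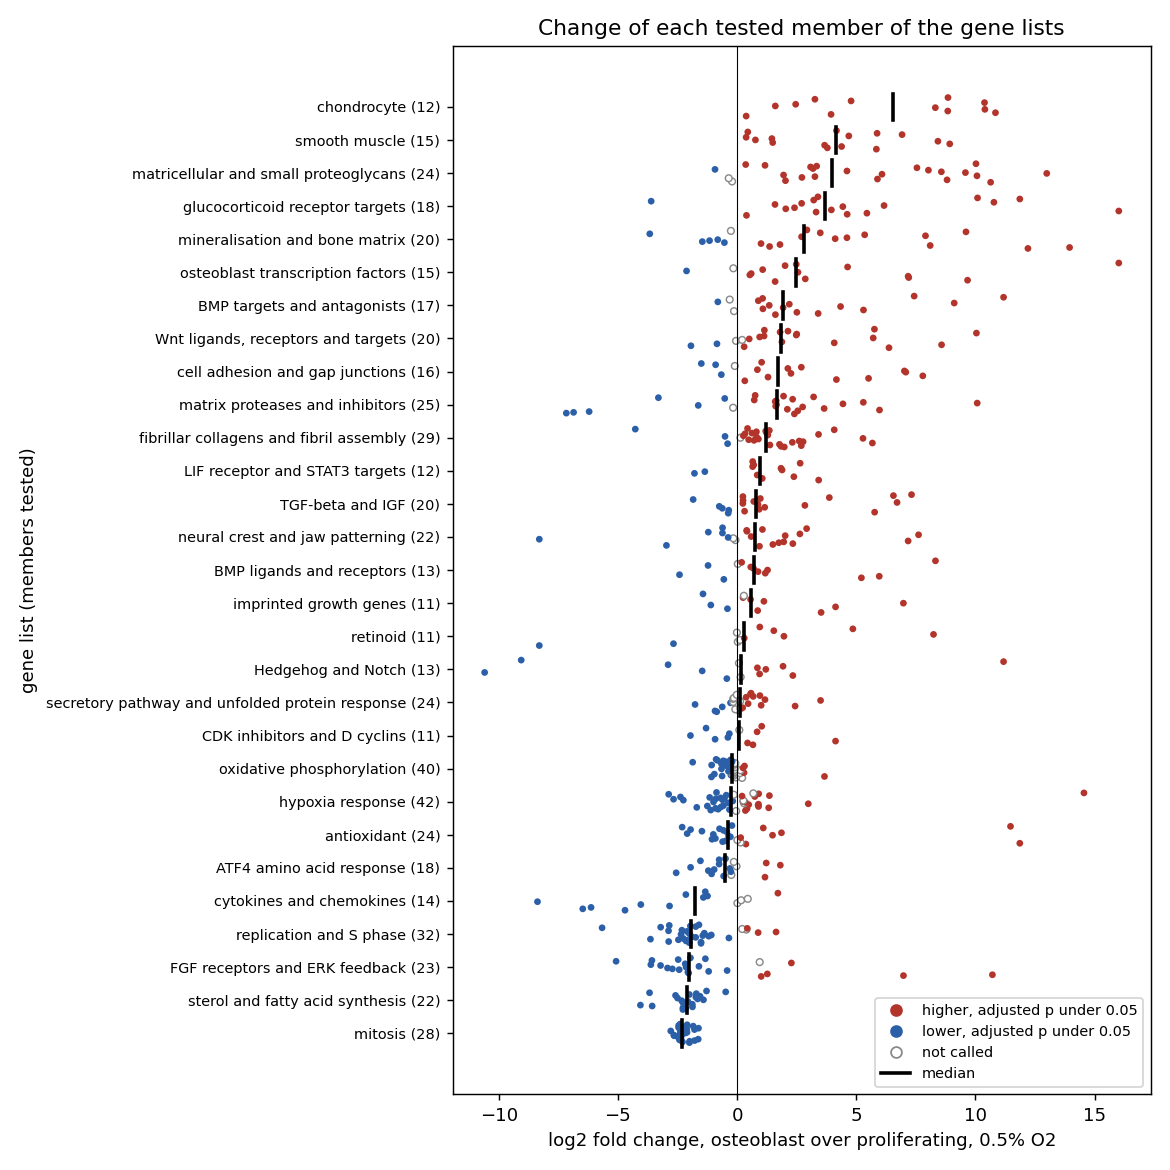
Log2 fold change (osteoblast over proliferating at 0.5% O2) of each tested member of the gene lists with at least 10 tested members, with 1 row per list and 1 point per gene (red higher, blue lower, open not past the threshold), and the list median as a black bar. Mitosis and sterol synthesis lie wholly below 0, the smooth muscle and chondrocyte lists wholly above it, and the hypoxia list on both sides.

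Genes of mineralisation and bone matrix divided. Of 25 listed, 20 were tested, 14 rose and 5 fell, with a median of 2.82. Those that rose included the proteins of the matrix itself. Spp1 (osteopontin), an acidic phosphoprotein of bone, had 1829, 1873 and 2116 CPM in proliferating libraries and 5225, 4882 and 4894 CPM in osteoblast libraries, a rise of 1.37. Sparc (osteonectin), which binds collagen and calcium, rose by 1.80, and Omd (osteomodulin), a keratan sulphate proteoglycan of bone, rose by 4.61. Mgp, an inhibitor of calcification, rose by 2.71 as well. Smpd3, a sphingomyelinase needed for mineralising bone, went from 2.85, 2.31 and 1.78 to 41.5, 45.1 and 34.5 CPM. The receptors for the hormones of calcium balance were among the larger rises. Pth1r, the parathyroid hormone receptor, had 0.0695, 0.116 and 0 CPM before and 17.3, 16.5 and 13.4 CPM after, and Vdr, the vitamin D receptor, had 5.07, 4.01 and 5.09 and 203, 200.4 and 179 CPM. Tnfrsf11b (osteoprotegerin), the decoy receptor that restrains osteoclasts, rose by 2.93 on the log2 scale (SE 0.11, edgeR adjusted p = 3.5e-12).

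Other genes of this list handle phosphate and pyrophosphate. Ank, which exports pyrophosphate or its precursor, fell by 1.46 on the log2 scale (SE 0.07, edgeR adjusted p = 4.5e-11), from 259 ± 8.19 to 94.4 ± 5.38 CPM. The phosphate transporters Slc20a1 and Slc20a2 had changes of -1.15 and -0.81, and Enpp1, the enzyme that makes pyrophosphate, of -0.53 (edgeR adjusted p = 0.0303). Enpp1 missed the threshold with DESeq2 (adjusted p = 0.0676) and in the edgeR fits that left out any 1 library other than the osteoblast library numbered 3 (adjusted p = 0.0502 to 0.104). Phospho1, the matrix vesicle phosphatase, was low in both groups at 0.777 ± 0.0899 and 1.56 ± 0.211 CPM, and its rise of 1.01 missed the threshold on library totals alone (edgeR adjusted p = 0.0513), with all 28 libraries in 1 fit (0.0853) and without the proliferating library numbered 2 (0.0538). Osteocalcin, the late osteoblast product, was nearly unread. Its copies Bglap, Bglap2 and Bglap3 are almost identical in sequence, so counts may be split or lost between them. Bglap2 had no count in proliferating libraries and 1.49, 1.35 and 1.01 CPM in osteoblast libraries, at least 35-fold higher, and the other 2 copies did not reach the level for a test.

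Osteocytes are osteoblasts that have become embedded in bone. Of 9 listed markers, 7 were tested, 3 rose and 4 fell, and Sost and Fgf23, which mature osteocytes secrete, had no count in any of the 6 libraries. Dmp1, a matrix phosphoprotein, rose from 1.11, 0.925 and 0.727 to 7.47, 14.5 and 9.26 CPM, and Mepe, its relative, went from no count to 4.37, 3.37 and 3.19 CPM, at least 99.2-fold higher. Phex, the endopeptidase that is mutated in X-linked hypophosphataemia, moved the other way, from 19.2, 19.04 and 21.0 CPM in proliferating libraries to 1.40, 1.76 and 1.4995 CPM in osteoblast libraries. It fell by 3.66 on the log2 scale (SE 0.15, edgeR adjusted p = 8.73e-12), and its groups did not overlap. Pdpn (podoplanin) and Cd44, surface proteins that many stromal cells also carry, had changes of -2.46 and -2.22.

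The collagen machinery rose broadly. Of 29 tested genes for fibrillar collagens and their assembly, 25 rose, 3 fell and 1 did not pass, with a median of 1.23. Col1a1 and Col1a2, the chains of type I collagen, the main protein of bone, rose by 1.98 and 1.85. Col1a2 had 4542, 4422 and 4388 CPM in proliferating libraries and 14992, 16658 and 16409 CPM in osteoblast libraries, which is 0.445% and 1.60% of the scaled counts by mean. Col12a1, a collagen that decorates type I fibrils, changed far more, from 137, 133 and 143 to 6868, 7403 and 6932 CPM, a rise of 5.68 on the log2 scale (SE 0.08, edgeR adjusted p = 6.64e-17). Chains of types III, V and VI rose too, by 2.70 (Col3a1), 1.78 (Col5a2) and 2.77 (Col6a2), whereas another type V chain, Col5a3, fell by 0.40 on the log2 scale (SE 0.11, edgeR adjusted p = 0.00593), a call lost with all 28 libraries in 1 fit (edgeR adjusted p = 0.274). Among the enzymes, Lox, which cross-links collagen, rose by 3.42 on the log2 scale (SE 0.07, edgeR adjusted p = 1.74e-15) from 631 ± 10.2 to 6752 ± 131 CPM, and the prolyl hydroxylase subunit P4ha3 from 2.07 ± 0.258 to 81.2 ± 8.65 CPM. The procollagen peptidases diverged, with Adamts2 up by 4.08 and Adamts14 at -4.27. Plod2, the lysyl hydroxylase of collagen telopeptides and a known hypoxia target, fell by 0.50 on the log2 scale (SE 0.08, edgeR adjusted p = 2.83e-05). P4hb, the shared subunit of prolyl hydroxylases, did not pass (edgeR adjusted p = 0.0555), but passed as higher with DESeq2 (0.0394), limma-voom (0.0339), the replicate block (0.0468) and without the library numbered 3 of either group (0.0367 and 0.0264).

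Matricellular proteins and small proteoglycans, which sit in the matrix and tune cell attachment and fibril growth, held several of the largest rises of the whole comparison. Of 24 tested, 21 rose and 1 fell, with a median of 3.98. Tnn (tenascin-N or -W), found in developing bone and tendon, had 2.19, 3.43 and 2.22 CPM in proliferating libraries and 4139.9, 4368 and 3949.7 CPM in osteoblast libraries. Its rise was 10.64 on the log2 scale (SE 0.14, edgeR adjusted p = 6.64e-17). Postn (periostin), named for the periosteum, went from 17.96, 19.2 and 22.8 to 9259.6, 8613 and 9086 CPM and alone took 0.899% of scaled osteoblast counts. Thbs1 (thrombospondin 1), an activator of latent TGF-beta, went from 179, 179 and 163 to 10531, 10772 and 9648 CPM. None of these genes overlapped between the groups. Among the small leucine-rich proteoglycans the rises differed in size. Aspn (asporin) rose by 10.07, Ogn (osteoglycin) by 8.57, Prelp by 8.03, Dcn (decorin) by 6.08 and Bgn (biglycan) by 1.95. Fmod (fibromodulin) had 3 counts in all proliferating libraries against 336 ± 18.8 CPM, a ratio of 9220 (95% counting interval 3160 to 44700). Ccn5, a growth-restraining member of the CCN family, rose from 0.0980 ± 0.0250 to 106 ± 4.49 CPM, and Ccn1 and Ccn2, targets of YAP and TGF-beta, by 3.09 and 3.34. Tnc and Thbs2, relatives of Tnn and Thbs1, did not pass the test, with 328 ± 5.95 against 284 ± 42.8 CPM for Tnc and 55.0 ± 0.852 against 43.3 ± 12.1 CPM for Thbs2. Tnc passed as lower in 7 of the alternatives tried, among them limma-voom (adjusted p = 0.0428) and the replicate block (0.0276), and Thbs2 in 5, among them DESeq2 (0.0461) and the replicate block (0.033).

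**Figure D3:**
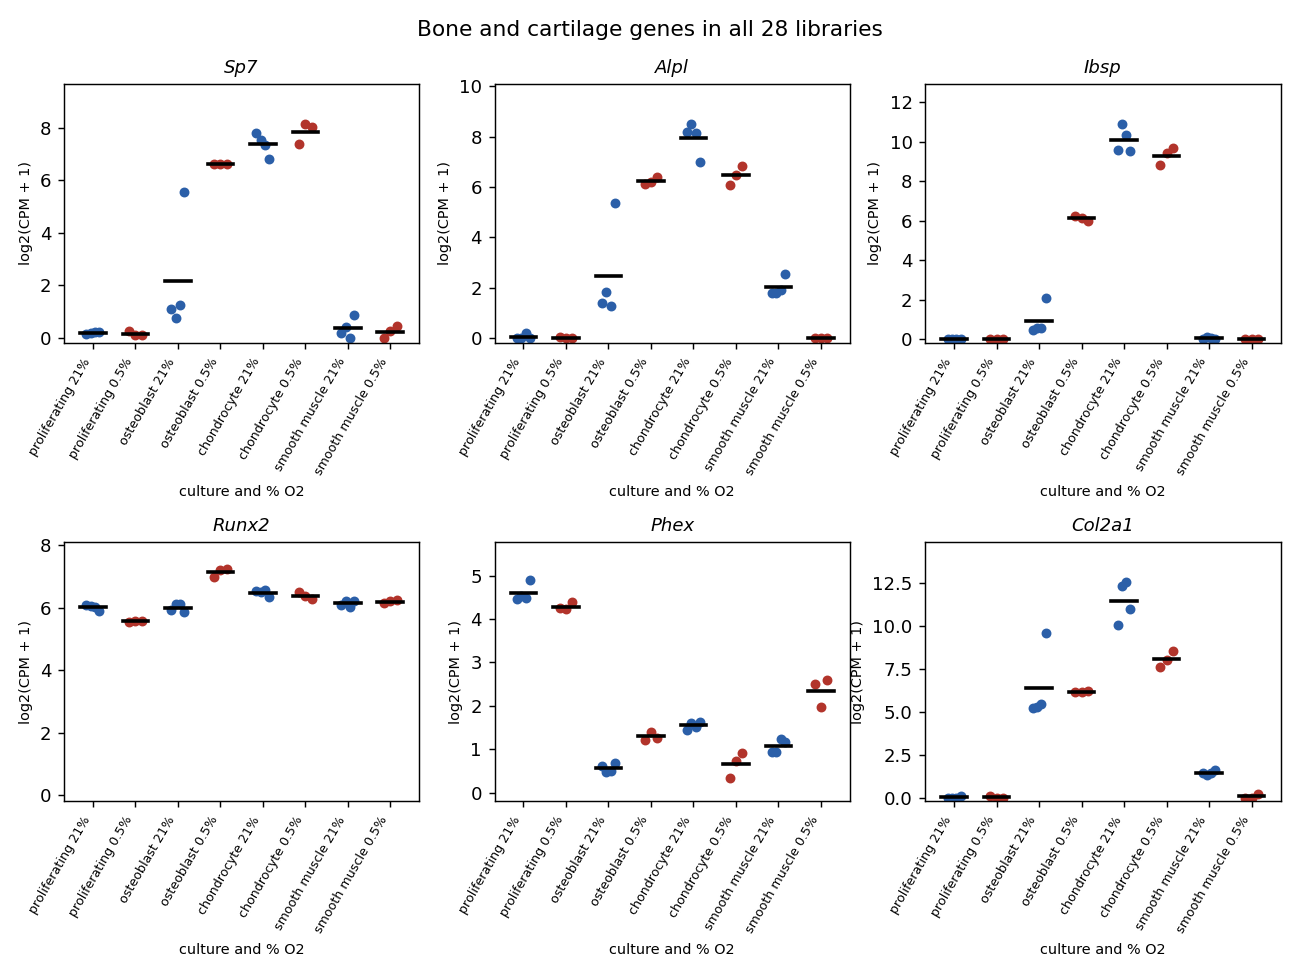
Log2(CPM + 1), scaled over all 28 libraries, of 6 bone and cartilage genes in proliferating, osteoblast, chondrocyte and smooth muscle cultures at 21% (blue) and 0.5% O2 (red), with 1 point per library and a bar at the mean of the log values. At 0.5% O2 Sp7 lies at 96.3 to 97.0 CPM in osteoblast libraries, while at 21% O2 3 osteoblast libraries lie at 0.670 to 1.36 CPM and the replicate numbered 4 lies at 45.4 CPM.

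Enzymes that remodel the matrix and the receptors that hold it followed. Of 25 proteases and inhibitors tested, 18 rose and 6 fell. Mmp2, Mmp14 and Timp2, which together activate gelatinase at the cell surface, rose by 2.41, 2.11 and 1.66. Mmp13, the collagenase of bone and hypertrophic cartilage and a Runx2 target, went from 1.01, 2.24 and 1.74 to 106, 93.4 and 113 CPM. Adamts1, an aggrecanase, rose by 5.30 on the log2 scale (SE 0.08, edgeR adjusted p = 1.62e-16) to 6752 ± 414 CPM, and Timp3, its matrix-bound inhibitor, by 4.44. Stromelysin 1 (Mmp3) was the clearest exception, with 31.9, 32.0 and 36.9 CPM in proliferating libraries and 0.165, 0.256 and 0.262 CPM in osteoblast libraries. Plat, the tissue plasminogen activator, fell by 3.30 on the log2 scale (SE 0.12, edgeR adjusted p = 1.43e-12). Of 16 adhesion genes tested, 12 rose and 3 fell. Cdh11, called osteoblast cadherin, went from 13.0 ± 1.53 to 235 ± 45.3 CPM. The collagen-binding integrins Itga1, Itga10 and Itga11 rose by 7.80, 7.08 and 7.02, and the fibronectin receptor Itga5 by 2.26. Gja1 (connexin 43), the gap junction protein of bone cells, fell by 0.90 on the log2 scale (SE 0.08, edgeR adjusted p = 4.72e-08).

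The secretory pathway that carries this matrix did not move as a block. Of 24 genes tested, 11 rose, 5 fell and 8 did not pass, with a median of 0.13. Creb3l1 (OASIS), a membrane-bound factor that drives collagen secretion in osteoblasts, rose from 5.35, 3.97 and 4.87 to 49.3, 58.9 and 53.5 CPM. Its relative Creb3l2 rose by 1.17 and the chaperone partner Dnajb9 by 2.44. The main endoplasmic reticulum chaperones Hspa5 (BiP) and Hsp90b1 fell, with changes of -0.85 and -0.92, from 810.2 ± 66.7 to 449 ± 34.2 CPM for Hspa5. Calr, Canx, Xbp1, Sec23a and Sec24d, which fold proteins, signal stress or coat transport vesicles, did not pass, and all 5 passed as lower on library totals alone. The linked amino acid response, run by Atf4, had 3 of 18 tested genes higher and 12 lower, although Atf4 mRNA rose. Psat1, of serine synthesis, fell by 2.55 on the log2 scale (SE 0.08, edgeR adjusted p = 1.73e-13) from 739.6 ± 2.37 to 126 ± 11.1 CPM, Cars (cysteinyl-tRNA synthetase) had a change of -1.53, and the cystine carrier Slc7a11 of -1.95. Slc3a2, the heavy chain of amino acid carriers, rose by 1.82 and Ddit4, a brake on mTOR and a target of hypoxia and glucocorticoids, by 1.23.

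Genes of the BMP pathway, whose ligand BMP-2 was in the osteogenic medium alone, were examined by role. Of 13 ligands, receptors and Smads tested, 9 rose and 3 fell, with a median of 0.70. Among the ligands, Bmp4 went from 0.0347, 0.231 and 0.654 to 20.6, 19.9 and 17.5 CPM, while Bmp2 itself fell by 0.55 on the log2 scale (SE 0.16, edgeR adjusted p = 0.00577), a call lost with all 28 libraries in 1 fit (edgeR adjusted p = 0.14). Of the receptors, Bmpr1a and Bmpr2 rose by 0.88 and 1.28. Smad1, which BMP receptors phosphorylate, had 54.3 ± 1.61 against 55.6 ± 2.91 CPM and did not pass, and Smad9, of the same class, went from 0.243, 0.501 and 0.218 to 96.4, 105 and 108 CPM. Of 17 targets and antagonists tested, 14 rose, 1 fell and 2 did not pass, with a median of 1.94. The Id genes, the best known direct targets, had 35.2, 32.3 and 28.8 and then 100.4, 101 and 92.9 CPM for Id1, and rises of 3.40 for Id2 and 2.51 for Id3. Id4 was at 98.0 ± 4.65 and 89.8 ± 16.1 CPM with overlapping libraries, and passed as lower without the osteoblast library numbered 1 (edgeR adjusted p = 0.0225). The feedback inhibitor Smad6 rose by 5.31 on the log2 scale (SE 0.20, edgeR adjusted p = 4.38e-10), to 133, 141 and 116 CPM. Hey1 and Atoh8, both BMP-induced factors, went from 0.0469 ± 0.0529 to 124 ± 8.43 CPM and from 0.976 ± 0.411 to 171 ± 13.6 CPM. Secreted antagonists rose as well, with Nog (noggin) up by 4.34, Chrdl1 by 9.11 and Grem1 by 1.35, and Fst (follistatin) fell by 0.81 on the log2 scale (SE 0.08, edgeR adjusted p = 2.13e-07). Bmper did not pass (edgeR adjusted p = 0.119) but was lower on library totals alone (0.013) and without the osteoblast library numbered 1 (0.00173).

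Nearly all glucocorticoid receptor targets rose, and dexamethasone was listed for the osteogenic medium alone. Of 18 tested, 17 rose and 1 fell, with a median of 3.68. Fkbp5, the chaperone that dampens the receptor, had 46.0, 44.3 and 44.6 CPM in proliferating libraries and 1072, 1105 and 1145 CPM in osteoblast libraries, a rise of 4.62 on the log2 scale (SE 0.07, edgeR adjusted p = 2.16e-16). Tsc22d3 (GILZ), an anti-inflammatory mediator, rose by 5.45, from 45.8 ± 0.537 to 1999.8 ± 93.6 CPM. The metallothioneins Mt1 and Mt2, which bind zinc and also respond to metals, went from 207 ± 2.26 to 4502 ± 519 CPM and from 73.9 ± 5.34 to 5315 ± 214 CPM. The receptor itself, Nr3c1, moved little, by 0.40, and its libraries overlapped (edgeR adjusted p = 0.245 on library totals alone). Gpx3, the extracellular glutathione peroxidase, had the largest rise among genes with a mean of at least 10 counts in both groups, predicted, ribosomal and mitochondrial genes left aside. It had 0.556, 0.270 and 0.291 CPM in proliferating libraries and 1257, 1405 and 1605 CPM in osteoblast libraries, and rose by 11.87 on the log2 scale (SE 0.17, edgeR adjusted p = 1.39e-16). Angptl4, a lipase inhibitor that both glucocorticoids and hypoxia can induce, was the single member that fell, from 4.11 ± 1.302 to 0.339 ± 0.172 CPM.

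The opposite pattern was seen in the genes that report FGF and ERK signalling. bFGF was listed for the proliferating medium alone. Of 23 genes tested, 17 fell and 5 rose, with a median of -2.03. The transcription factors Etv4 and Etv5, direct outputs of FGF signalling, had changes of -3.21 and -3.62. Etv5 had 181, 169 and 178 CPM in proliferating libraries and 13.0, 14.3 and 15.6 CPM in osteoblast libraries. The phosphatase Dusp6, which switches ERK off, went from 137, 137 and 135 to 28.6, 31.4 and 33.0 CPM. It fell by 2.14 on the log2 scale (SE 0.08, edgeR adjusted p = 1.59e-12), and the inhibitors Spry2 and Spry4 had changes of -2.03 and -2.06. Phlda1, Fosl1, Myc and Ccnd1 were lower too, at -3.57, -2.17, -1.33 and -1.95. The receptors moved against their targets. Fgfr2, whose activating mutations fuse skull sutures early, had 3.86, 4.70 and 5.56 CPM and then 687, 614 and 484 CPM, a rise of 6.98 on the log2 scale (SE 0.16, edgeR adjusted p = 3.49e-13). Fgfr3, of cartilage and bone, went from 0.0606 ± 0.105 to 110.1 ± 28.1 CPM, and Fgfr1 rose by 1.01. Egr1, an early response gene, rose from 22.0, 19.3 and 18.4 to 136, 81.2 and 73.7 CPM with a wide spread between osteoblast libraries.

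LIF, also listed for the proliferating medium alone, signals through Lifr and Il6st to Stat3. Of 12 genes of that route tested, 10 rose and 2 fell. Lifr went from 8.96, 7.17 and 8.58 to 97.9, 90.2 and 78.0 CPM, and Stat3 rose by 0.85. Socs3, the direct feedback target that limits the signal, fell by 1.79 on the log2 scale (SE 0.18, edgeR adjusted p = 9.94e-07), and Bcl3 had a change of -1.35. The gene for LIF itself was among the 10 largest falls, from 64.8, 63.4 and 66.6 to 0.412, 1.13 and 0.600 CPM. Of 14 cytokines, chemokines and related genes tested, 10 fell and 1 rose. Il1rl1, the receptor for interleukin 33, went from 479.9, 460.0 and 473 to 6.31, 6.08 and 7.83 CPM, and Il33 fell by 2.83 on the log2 scale (SE 0.23, edgeR adjusted p = 2e-08). Il11, Ccl2, Cxcl12 and Ptgs2 were lower as well, at -4.70, -4.04, -1.41 and -2.15. Csf1, which osteoclast precursors need, was the member that rose, by 1.72 on the log2 scale (SE 0.09, edgeR adjusted p = 2e-10).

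Wnt signalling favours osteoblasts over other mesenchymal fates. Of 20 ligands, receptors and targets tested, 16 rose and 2 fell, with a median of 1.85. Among the ligands, Wnt4 went from 1.53, 1.46 and 0.945 to 119, 117 and 92.5 CPM and Wnt11 from 0.244 ± 0.138 to 4.18 ± 0.551 CPM. The co-receptors Lrp5 and Lrp6 rose by 0.95 and 1.14, and Lrp4, the anchor of sclerostin, by 5.71. Of the feedback targets, Notum, an enzyme that inactivates Wnt proteins, had 3.27, 3.51 and 2.00 CPM and then 151, 174 and 152 CPM, and Nkd1 had no count before and was at least 135-fold higher. Axin2, the usual reporter of the pathway, rose but was low in both groups, at 0.174 ± 0.100 and 0.998 ± 0.481 CPM. Of 5 secreted inhibitors tested, 3 rose, 1 fell and 1 did not pass. Dkk2 had the largest fall by the same measure, from 1220.0, 1189 and 1271 to 3.18, 2.34 and 2.10 CPM (-8.92 on the log2 scale, SE 0.12, edgeR adjusted p = 6.64e-17). Wif1, a direct Wnt binder made by osteoblasts, went the other way, from 0.0711 ± 0.0616 to 74.7 ± 7.39 CPM.

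In the TGF-beta and IGF list 15 of 20 tested genes rose and 5 fell. Tgfb2 went from 1.32, 1.08 and 0.981 to 60.6, 65.3 and 60.4 CPM while Tgfb1 fell by 0.37 on the log2 scale (SE 0.08, edgeR adjusted p = 0.000966), so the isoforms moved apart. Igf1, a growth factor that bone stores, went from 0.175 ± 0.152 to 18.4 ± 2.49 CPM. Of the IGF binding proteins, Igfbp7 rose by 6.56 and Igfbp5 by 3.87, and Igfbp3 fell by 1.84 on the log2 scale (SE 0.10, edgeR adjusted p = 4.08e-10). Pappa, the protease that frees IGF from its binding proteins, rose by 7.32. Hedgehog and Notch genes divided, with 6 of 13 tested higher and 5 lower. Gli2 rose by 2.34. Hhip, a hedgehog target and antagonist, had 7.40, 7.32 and 6.87 CPM in proliferating libraries and no count in osteoblast libraries. Nrarp and Dll1, of the Notch route, were lower, and Jag1 and Notch2 were higher, by 1.93 and 1.21.

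The genes of cell division fell together. All 28 genes of the mitosis list were tested and all 28 fell, against 35.1% of all genes, with a median of -2.29 and values from -2.78 to -1.62. Mki67, the usual proliferation antigen, had 339, 348 and 362 CPM in proliferating libraries and 90.0, 71.3 and 101 CPM in osteoblast libraries. Cdc20, which activates the anaphase-promoting complex, went from 100.5, 110.3 and 104 to 17.0, 18.1 and 26.7 CPM, and Bub1b, of the spindle checkpoint, fell by 2.65 on the log2 scale (SE 0.10, edgeR adjusted p = 1.69e-12). The groups were well apart, yet every one of these genes was still read in osteoblast libraries. Of 32 replication genes tested, 27 fell, 3 rose and 2 did not pass, with a median of -1.93. Mcm6, a subunit of the replicative helicase, had 137, 134 and 121 CPM before and 31.6, 26.9 and 30.6 CPM after. Uhrf1, which keeps DNA methylation through replication, fell by 2.84 on the log2 scale (SE 0.10, edgeR adjusted p = 1.02e-12), and E2f2, an activator of S phase genes, had the largest fall of the list, to 0.200 ± 0.102 CPM.

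The subunits of ribonucleotide reductase, which makes the building blocks of DNA, went against the rest of the list. Rrm1 (ENSMUSG00000030978, chr7:102441695-102469771), the large subunit, had 195, 186 and 188 CPM in proliferating libraries and 351, 344 and 357 CPM in osteoblast libraries. It rose by 0.89 on the log2 scale (SE 0.06, edgeR adjusted p = 4.92e-09). Rrm2 (ENSMUSG00000020649, chr12:24708241-24714146), the small subunit whose level normally follows S phase, had 48.1, 46.2 and 40.3 CPM and 146, 135 and 138 CPM. It rose by 1.64 on the log2 scale (SE 0.08, edgeR adjusted p = 6.48e-11), and neither gene overlapped between the groups. E2f1 was the other member that rose, by 0.43. Of 11 CDK inhibitors, D cyclins and pocket proteins tested, 5 rose and 5 fell, with a median of 0.10. Among the inhibitors, which hold cells in G1, Cdkn1c (p57) rose from 4.41, 5.05 and 4.40 to 81.8, 79.3 and 82.1 CPM, Cdkn1a (p21) by 0.67 and Cdkn1b (p27) by 0.44, while Cdkn2c (p18) and Cdkn2d (p19) had changes of -0.92 and -0.38. Of the D cyclins, Ccnd1 fell, from 843 ± 28.6 to 218 ± 13.1 CPM, and Ccnd3 rose by 0.84.

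Promoters of these genes are known for short shared elements, so RefSeq promoters of GRCm38.p6 (250 bases before to 50 after each gene's start) were searched on both strands. The choice of motifs was made after the changes had been seen, and a match is a description of the sequence only. TTTGAA, the core of the cell cycle homology region (CHR) that the DREAM complex recognises, was found in 18 of the 23 mitosis genes with a promoter in the table (78.3%) and in 20.2% of 27025 promoters. In the 250 bases before the start alone it was found in 9 of the 23 (39.1%) and in 18.3% of promoters. An E2F site (TTTCCCGC, TTTGGCGC, TTTCGCGC or TTTGCCGC, which share bases on opposite strands in some promoters) was found in 11 of 26 replication genes (42.3%) and in 2.6% of promoters, or in 8 (30.8%) and 2.16% in the 250 bases before the start. CCAAT, bound by NF-Y, was found in 82.6% of mitosis and 69.2% of replication promoters, against 41.1% of all. The median change was -2.32 in the 18 mitosis genes with TTTGAA and -2.39 in the 5 without it. Among replication genes the median was -2.09 in the 11 with an E2F site and -1.51 in the 15 without. Rrm1, Rrm2 and E2f1, which rose, had none of the E2F sequences in this window, and Ccne1, which did not pass, had none either. Replication genes that fell also lacked them, among them Mcm2, Pcna and Tk1 at -1.51, -1.19 and -2.87. Only exact matches were counted, and the part of these sites in the changes was not tested. The 3 promoters below show a mitosis gene, a replication gene and the discordant Rrm2, each over the 250 bases before its start on its own strand, 5′ to 3′.
Cdc20 (chr4:118437344-118437593, minus strand, TTTGAA in capitals): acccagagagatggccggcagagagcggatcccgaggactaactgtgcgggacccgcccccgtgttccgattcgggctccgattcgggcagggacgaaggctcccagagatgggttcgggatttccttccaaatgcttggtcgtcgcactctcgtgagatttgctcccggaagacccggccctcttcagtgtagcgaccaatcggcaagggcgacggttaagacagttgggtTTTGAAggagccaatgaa
Mcm6 (chr1:128359706-128359955, minus strand, E2F sites in capitals): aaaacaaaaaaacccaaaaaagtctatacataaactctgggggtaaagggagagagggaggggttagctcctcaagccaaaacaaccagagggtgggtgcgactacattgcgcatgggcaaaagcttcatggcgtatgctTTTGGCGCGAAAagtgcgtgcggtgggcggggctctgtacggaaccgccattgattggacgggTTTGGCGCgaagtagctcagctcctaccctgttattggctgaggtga
Rrm2 (chr12:24708004-24708253, plus strand, CCAAT in capitals): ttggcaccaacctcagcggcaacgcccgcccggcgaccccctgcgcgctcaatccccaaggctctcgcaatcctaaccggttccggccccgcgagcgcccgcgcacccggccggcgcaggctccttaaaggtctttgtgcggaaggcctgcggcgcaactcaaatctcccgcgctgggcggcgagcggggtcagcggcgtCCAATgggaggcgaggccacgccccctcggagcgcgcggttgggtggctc

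Genes of sterol and fatty acid synthesis also fell together. All 22 genes tested fell, with a median of -2.11 and values from -4.05 to -0.48. Hmgcs1 (ENSMUSG00000093930, chr13:119690379-119708260), at the entry of the cholesterol pathway, had 436, 429 and 452 CPM in proliferating libraries and 116, 88.9 and 91.2 CPM in osteoblast libraries. It fell by 2.15 on the log2 scale (SE 0.09, edgeR adjusted p = 1.26e-11). Sqle, the first step of the pathway that uses oxygen, went from 395, 392 and 399 to 91.1, 80.2 and 74.9 CPM. Idi1, which makes the isoprenoid unit dimethylallyl diphosphate, had a change of -3.56. On the fatty acid side, Fasn fell by 1.72 on the log2 scale (SE 0.07, edgeR adjusted p = 1.24e-11), Elovl6 had a change of -3.67, and Scd2, a desaturase, went from 4600.3 ± 30.2 to 1408 ± 29.0 CPM. Srebf2, the factor that switches these genes on, fell by 1.28, and Srebf1 fell by 0.48. Serum differed between the media, at 15% and 10%, and its part in this fall was not tested. The sterol regulatory element, TCACNCCAC, was found in 1 of 14 promoters of the list (7.14%, against 1.44% of all), that of Hmgcs1, and CCAAT in 85.7%.
Hmgcs1 (chr13:119690101-119690350, plus strand, sterol regulatory element in capitals): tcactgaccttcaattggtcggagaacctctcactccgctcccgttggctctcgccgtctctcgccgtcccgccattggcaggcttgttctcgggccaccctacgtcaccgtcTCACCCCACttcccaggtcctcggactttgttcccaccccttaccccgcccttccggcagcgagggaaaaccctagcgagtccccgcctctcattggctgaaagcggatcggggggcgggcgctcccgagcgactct

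**Figure D4:**
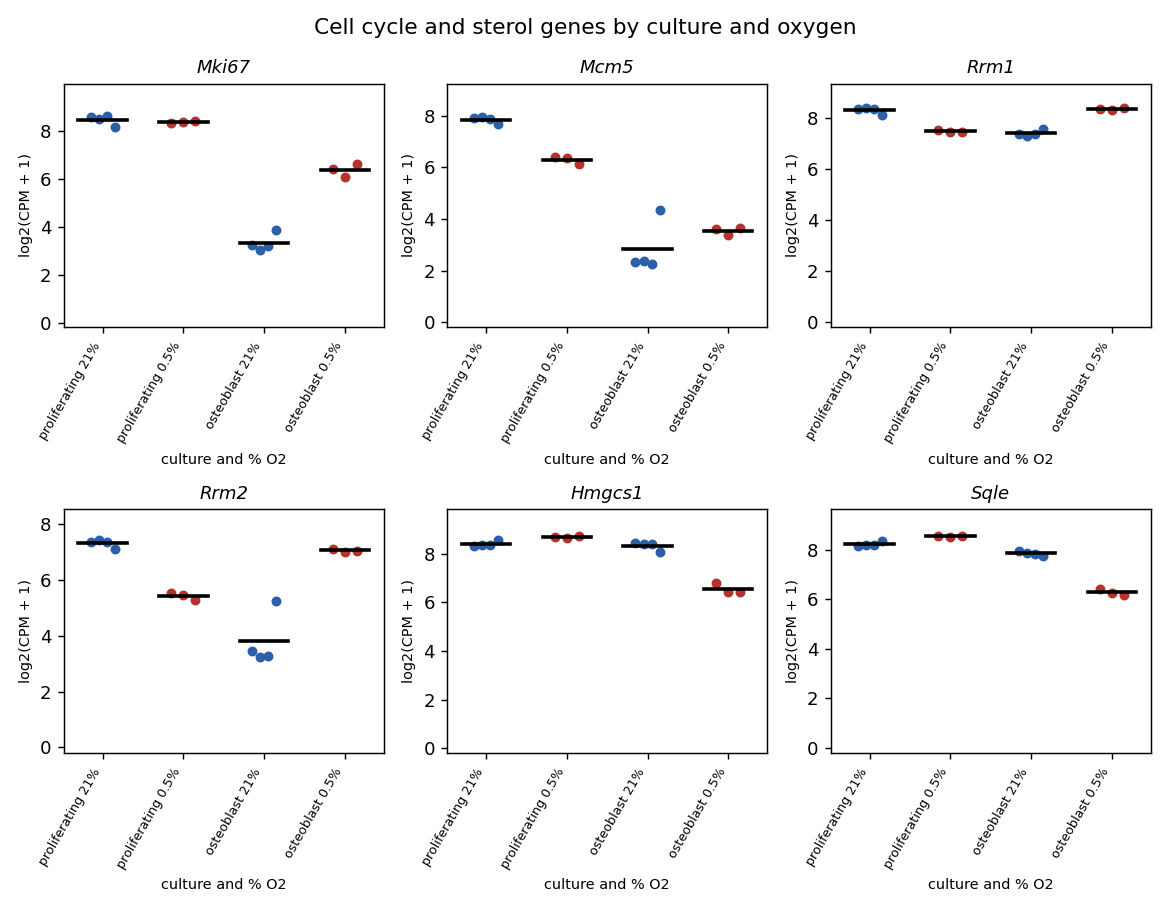
Log2(CPM + 1), scaled over all 28 libraries, of cell cycle and sterol genes in proliferating and osteoblast cultures at 21% (blue) and 0.5% O2 (red), with 1 point per library and a bar at the mean of the log values. At 0.5% O2 Rrm2 is higher in osteoblast libraries (126.8 to 137 CPM) than in proliferating ones (37.97 to 45.1 CPM), and Hmgcs1 is lower (83.5 to 108.8 against 400.3 to 426.1 CPM).

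Both groups were kept at 0.5% O2, so this comparison does not contrast low with high oxygen. The labels do not give the time the proliferating cells spent at 0.5% O2, and its part in the values below cannot be told apart from those of cell state and medium. In cells short of oxygen, prolyl hydroxylases no longer mark HIF-1alpha for destruction, and HIF then binds ACGTG cores near genes for glycolysis, angiogenesis and pH control. Of 42 such genes tested, 22 fell, 15 rose and 5 did not pass, with a median of -0.25. Vegfa, the main angiogenic target, had 312, 305 and 309 CPM in proliferating libraries and 308, 321 and 273 CPM in osteoblast libraries, which overlapped (edgeR adjusted p = 0.65, or 0.00378 as lower on library totals alone). The glycolytic enzymes on the list went both ways. Hk2 and Pfkl rose by 0.36 and 0.24, and both missed the threshold on library totals alone (edgeR adjusted p = 0.0972 and 0.895). Pfkl also missed it without the proliferating library numbered 1 (0.0553). Pgk1 went from 5601, 5618 and 6099.7 to 2991, 3105 and 3254 CPM. The log2 changes of Pkm, Gpi1, Tpi1 and Ldha were -1.15, -0.99, -0.61 and -0.32, and that of Ldha missed the threshold with all 28 libraries in 1 fit (edgeR adjusted p = 0.0995). Aldoc fell by 2.25 on the log2 scale (SE 0.07, edgeR adjusted p = 5.83e-13). Gapdh and Aldoa share sequence with many near-identical copies, and the counts listed for Aldoa (under 4 CPM) are far from those of the other enzymes, so both are uncertain here.

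Other hypoxia genes rose. Pfkfb3, which makes the strongest activator of phosphofructokinase, had 42.4, 43.1 and 45.9 CPM and then 318, 352 and 375 CPM, a rise of 2.99 on the log2 scale (SE 0.08, edgeR adjusted p = 5.85e-14). Egln3, an oxygen-sensing prolyl hydroxylase, went from 485, 475 and 491 to 871, 864 and 977 CPM, whereas its relative Egln1 fell by 0.67. Hif1a mRNA rose by 0.91 on the log2 scale (SE 0.07, edgeR adjusted p = 8.04e-09). Hif3a, a family member that can restrain the others and that glucocorticoids are known to induce in some tissues, had no count in proliferating libraries and 109.5, 124 and 104 CPM in osteoblast libraries, at least 3090-fold higher. Ero1l, an oxidase of the endoplasmic reticulum, fell from 1543, 1559.7 and 1917 to 274, 236 and 178 CPM. ACGTG was found in 25 of 37 promoters of the list (67.6%, against 21.8% of all promoters), and the median change was -0.13 in the 25 genes with it and -0.40 in the 12 without it. Egln3, which rose, and Pgk1, which fell, both hold it.
Egln3 (chr12:54203875-54204124, minus strand, ACGTG or its reverse complement in capitals): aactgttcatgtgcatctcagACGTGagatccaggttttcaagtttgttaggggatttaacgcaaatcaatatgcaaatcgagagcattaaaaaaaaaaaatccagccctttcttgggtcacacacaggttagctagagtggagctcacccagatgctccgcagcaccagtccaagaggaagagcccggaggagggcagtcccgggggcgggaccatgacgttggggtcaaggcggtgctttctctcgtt
Pgk1 (chrX:106186850-106187099, plus strand, ACGTG or its reverse complement in capitals): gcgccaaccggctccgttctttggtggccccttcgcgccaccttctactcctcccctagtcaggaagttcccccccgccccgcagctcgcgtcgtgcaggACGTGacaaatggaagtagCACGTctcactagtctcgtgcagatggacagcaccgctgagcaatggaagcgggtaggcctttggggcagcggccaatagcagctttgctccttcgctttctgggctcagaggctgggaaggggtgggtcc

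**Figure D5:**
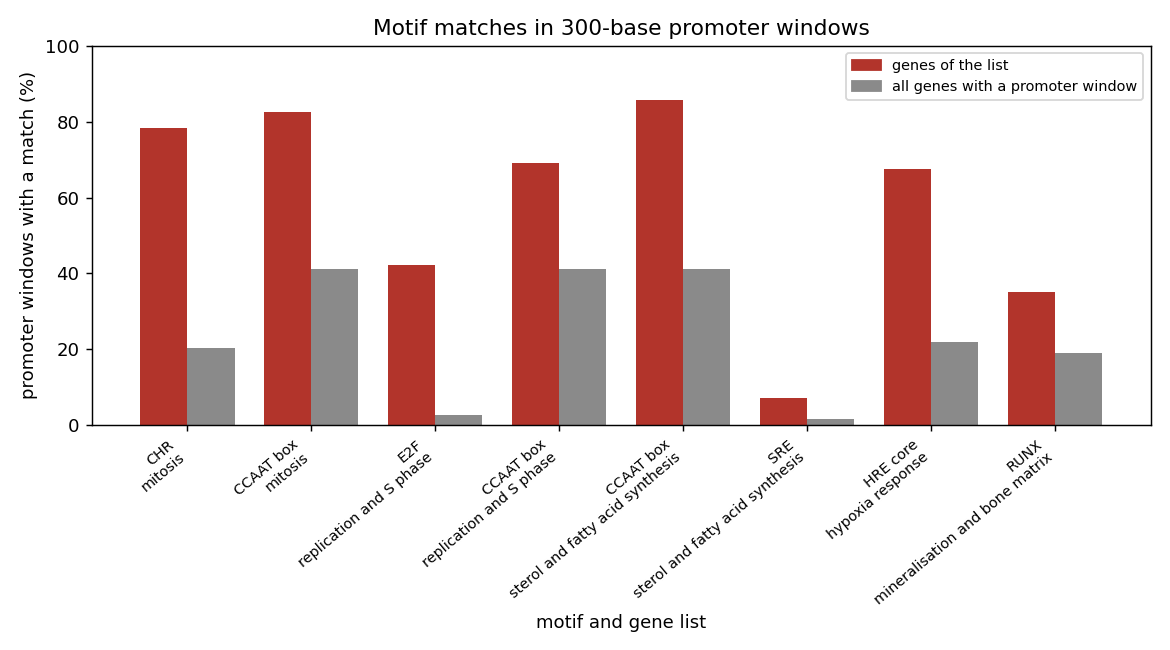
Percent of RefSeq promoters (250 bases before to 50 after the start) holding each motif on either strand, by gene list and over all 27025 promoters. The bars for TTTGAA in mitosis genes (78.3%), E2F sites in replication genes (42.3%) and ACGTG in hypoxia genes (67.6%) stand above those for all promoters (20.2%, 2.6% and 21.8%).

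Of 40 nuclear genes of oxidative phosphorylation tested, 20 fell, 4 rose and 16 did not pass, with a median of -0.20, and 33 fell when library totals alone set the scale. Atp5b, of the ATP synthase, fell by 0.82 on the log2 scale (SE 0.07, edgeR adjusted p = 2.65e-08), and Cycs (cytochrome c) fell by 1.07. Ndufa4l2, a hypoxia-induced brake on complex I, was the exception in size, from 1.15, 1.04 and 1.78 to 15.6, 16.7 and 18.4 CPM. Of 24 antioxidant genes tested, 15 fell and 7 rose. Txnrd1 and Srxn1, targets of the oxidant sensor Nrf2, had changes of -2.09 and -2.30, and another such target, Gclc, rose by 1.86 on the log2 scale (SE 0.08, edgeR adjusted p = 9.5e-12). Selenop, the selenium carrier, had no count in proliferating libraries and 13.3 ± 0.860 CPM in osteoblast libraries, at least 365-fold higher.

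Neural crest genes moved in both directions. Of 22 neural crest and jaw patterning genes tested, 14 rose and 6 fell. Twist1 and Snai2, factors of crest migration, rose by 0.94 and 2.34, and Tfap2a by 1.75. Twist2 fell by 2.96 on the log2 scale (SE 0.12, edgeR adjusted p = 6.18e-12), from 44.6, 45.5 and 41.2 to 4.95, 5.42 and 6.45 CPM. Foxc1, of cranial mesenchyme, went from 11.9 ± 2.59 to 90.3 ± 7.41 CPM. Sox10 and Foxd3, which define early migratory crest, had no count in any of the 6 libraries. Crabp1, a cytoplasmic retinoic acid carrier of the crest, fell from 3025, 2924 and 2772 to 10.1, 8.67 and 9.03 CPM, and Nes (nestin), of neural and crest progenitors, from 127 ± 2.45 to 2.34 ± 0.0923 CPM. Elsewhere in retinoid metabolism, Aldh1a1, which makes retinoic acid, rose from 0.868, 0.424 and 1.02 to 243, 234 and 234 CPM, and Cyp26b1, which breaks it down, by 1.54. Of 11 imprinted growth genes tested, 7 rose and 3 fell, with H19 up by 3.53 on the log2 scale (SE 0.08, edgeR adjusted p = 1.64e-14) and Mest from 0.637 ± 0.198 to 80.6 ± 19.1 CPM.

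Markers of other lineages also moved with the group. Of 22 chondrocyte genes listed, 12 could be tested and those 12 rose, but 4 of them had 0 to 3 counts in proliferating libraries and entered the test through the osteoblast libraries alone. With at least 10 counts required in every library, 5 rose. The summed level of the list went from 228.2 to 244.0 CPM in proliferating libraries to 1697 to 1746 CPM in osteoblast libraries. Col11a1, a fibril collagen of cartilage and also of bone, made up much of that sum, at 3.13, 2.66 and 3.05 and then 940.4, 933 and 963 CPM. Col2a1, which defines cartilage, had 3 counts in proliferating libraries and 74.6, 75.5 and 76.7 CPM in osteoblast libraries, a ratio of 2070 (95% counting interval 709 to 10100). Col10a1, of hypertrophic cartilage, went from 0.0727 ± 0.126 to 35.8 ± 1.20 CPM, Sox9 rose by only 0.38 on the log2 scale (SE 0.07, edgeR adjusted p = 0.000301), a call lost on library totals alone (edgeR adjusted p = 0.0728) and with all 28 libraries in 1 fit (0.356), and Matn1 and Snorc had no count in any library. Of 18 smooth muscle genes listed, 15 were tested and those 15 rose, with a summed level of 1464 to 1584 CPM before and 5280 to 5701 CPM after. Acta2 (smooth muscle actin), which activated mesenchyme also expresses, had 33.1, 34.4 and 26.6 and 1773, 1675 and 1968 CPM. The definitive contractile gene Myh11 was near 0, at 1.15 ± 0.523 CPM in osteoblast libraries, and Pln and Kcnmb1 had no count. The part of such cells in the results above was not tested.

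Of 7 adipocyte genes tested, 5 rose and 1 fell, and the summed level was 195.5 to 206.2 CPM and then 407.8 to 444.3 CPM. Pparg, the master regulator of fat, went from 3.58, 3.82 and 3.67 to 37.0, 39.5 and 38.9 CPM, while the defining fat genes Adipoq, Lep, Cidec and Cfd had no count in any of the 6 libraries. Of 4 tendon genes tested, 3 rose and 1 fell (sum 33.3 to 41.4 and then 431.4 to 467.8 CPM). Fmod made up most of that rise, Scx, the factor that defines tendon, fell by 0.70 on the log2 scale (SE 0.16, edgeR adjusted p = 0.000963), and Tnmd and Kera were at 0. Of 3 neuron genes tested, 2 rose and 1 fell (sum 16.7 to 20.4 and then 94.2 to 119.5 CPM), which was mostly Map2, and Dcx was at 0. Of 5 glial and melanocyte genes tested, Mitf alone rose, by 4.05 (sum 7.503 to 11.3 and then 44.9 to 54.4 CPM), and Dct and Tyr were at 0. Macrophage and osteoclast genes were lower in sum (15.6 to 17.2 and then 3.71 to 5.47 CPM), with 3 of 4 tested lower, 1 higher, and Adgre1, Itgam, Calcr and Ocstamp at 0. Endothelial genes summed to under 4 CPM in every library, with 1 gene tested, Pecam1, whose libraries overlapped, and Tie1 and Emcn at 0. Epithelial genes fell in sum from 305.6 to 315.1 CPM to 93.4 to 108.2 CPM, nearly all of it Krt19, with 2 of 2 tested lower (Krt19 had an edgeR adjusted p of 0.113 with all 28 libraries in 1 fit) and Krt5 at 0. For each of these lists, its part in the results above was not tested.

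Genes picked by size alone added others to these groups. Maf, a transcription factor of the basic leucine zipper class, went from 3.75, 3.28 and 2.73 to 1274, 1338 and 1156 CPM and Tmtc1, an enzyme of protein mannosylation, from 0.468 ± 0.350 to 125 ± 12.8 CPM. Dpep1, a membrane dipeptidase, held 2 counts in all proliferating libraries against 481 ± 17.7 CPM, a ratio of 19800 (95% counting interval 5480 to 163000). Also near 0 before were the collagen Col8a2 (647 ± 82.3 CPM after), the secreted protein Crispld2 (349 ± 11.6 CPM), Megf6 (166 ± 33.3 CPM) and Klf15 (156 ± 5.42 CPM), a glucocorticoid-induced factor. On the falling side, the EGF receptor ligands Areg and Btc had 61.6, 57.8 and 66.1 CPM and 37.2, 41.5 and 44.3 CPM in proliferating libraries, and 0.389 ± 0.129 and 0.169 ± 0.0708 CPM in osteoblast libraries. Upp1, a uridine phosphorylase, went from 128 ± 2.05 to 0.597 ± 0.213 CPM, Gap43, a growth cone protein, from 229.6 ± 5.66 to 1.73 ± 0.478 CPM, and Esm1, a proteoglycan induced by angiogenic signals, from 109 ± 8.49 to 1.88 ± 0.270 CPM. The urea transporter Slc14a1 went from 169 ± 2.96 to 1.31 ± 0.439 CPM. Btn1a1 and the near-identical pair Apol9a and Apol9b, whose counts cannot be assigned with certainty, were under 1 CPM in osteoblast libraries and at 34.5 ± 1.70, 37.2 ± 2.07 and 28.7 ± 1.05 CPM in proliferating libraries.

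By share of counts, which favours long and abundant transcripts, the osteoblast cultures gained most in Col1a2, Thbs1, Postn, Col1a1, Col12a1, Adamts1, Lox, Mt2, Bgn and Mt1. The small proteoglycan Bgn (biglycan), for instance, went from 1650.4, 1609.6 and 1632 to 6023, 6019 and 6892 CPM. The losses were in Pkm, Scd2, Crabp1, Eef1a1, Pgk1, Hsp90ab1, Eef2, Vim, Lgals1 and Anxa2. Pkm and Pgk1 are enzymes of glycolysis, and Eef1a1 and Eef2 are elongation factors of translation. Vim (vimentin), a mesenchymal filament protein, stayed abundant at 10148 ± 82.2 and 8600.1 ± 899 CPM and fell by only 0.24 on the log2 scale (SE 0.08, edgeR adjusted p = 0.0105). The call for Vim was lost with all 28 libraries in 1 fit (edgeR adjusted p = 0.068), without the proliferating library numbered 1 (0.0523) and without the osteoblast library numbered 2 (0.0615).

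The same change was measured at 21% O2, where the proliferating and osteoblast groups have 4 libraries each and the same media. The difference of the changes (the log2 change at 0.5% O2 minus that at 21% O2) was tested in 15486 genes and passed in 8394 (54.2%), 4475 higher (28.9%) and 3919 lower (25.3%). On library totals alone, 45.4% of the called genes were higher in place of 53.3%. This test uses the same 6 libraries as above. On levels scaled over all 28 libraries, the osteoblast library numbered 4 at 21% O2 stood apart from its group. A setting with replicates 1 to 3 of each group alone was therefore added after the data were seen. It also leaves out the proliferating library numbered 4 at 21% O2. Sp7 was at 96.7 ± 0.373 CPM (mean ± SD, n = 3) in osteoblast cultures at 0.5% O2, and at 21% O2 it was at 0.670 to 1.36 CPM in 3 libraries and at 45.4 CPM in the replicate numbered 4. With all libraries the difference for Sp7 was 3.31 (SE 3.91, edgeR adjusted p = 0.508). With replicates 1 to 3 of each group alone it was 6.77 (SE 0.60, edgeR adjusted p = 2.03e-09). That setting leaves out the library that stood apart in Sp7 itself, so its p-value is not a separate test of the difference. Alpl also missed with all libraries and passed with replicates 1 to 3 of each group alone. It held 1 and 4 counts in the proliferating libraries at 0.5% and 21% O2, so the size of its difference is not fixed by the counts. Runx2 passed either way. Its level was 63.9 ± 3.93 and 63.5 ± 6.04 CPM in proliferating (n = 4) and osteoblast (n = 4) cultures at 21% O2, and 46.2 ± 0.495 and 140.3 ± 13.6 CPM (n = 3 each) at 0.5% O2. The difference was 1.60 (SE 0.12, edgeR adjusted p = 2.91e-08), or 1.59 with replicates 1 to 3 alone.

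In the mitosis list 28 of 28 tested genes were higher in this difference (28.9% of all genes), with a median of 2.95, and in the replication list 29 of 32, with a median of 1.58, or 28 and 30 with replicates 1 to 3 alone. The 2 oxygen levels also differed in the proliferating cultures. Mcm5, a helicase subunit, was at 232 ± 20.2 and 78.2 ± 8.16 CPM in proliferating cultures at 21% (n = 4) and 0.5% O2 (n = 3), so it started lower at 0.5% O2. In osteoblast cultures at 21% O2 it was at 3.83 to 4.22 CPM in 3 libraries and at 19.16 CPM in the replicate numbered 4, and at 0.5% O2 at 9.42 to 11.6 CPM. Its difference was 1.99, or 3.02 with replicates 1 to 3 alone. Mki67 was at 351 ± 49.3 CPM in proliferating and 9.31 ± 2.87 CPM in osteoblast cultures at 21% O2 (n = 4 each), and at 328 ± 12.3 and 82.2 ± 14.3 CPM at 0.5% O2 (n = 3 each). Its difference was 3.22 (SE 0.27, edgeR adjusted p = 3.61e-07). Rrm2 changed in opposite directions. At 21% O2 it was at 135.5 to 168.7 CPM in proliferating libraries and at 8.52 to 37.1 CPM in osteoblast libraries, and at 0.5% O2 at 37.97 to 45.1 and 126.8 to 137 CPM. The difference for Rrm2 was 4.90 (SE 0.65, edgeR adjusted p = 6.8e-05), or 5.81 with replicates 1 to 3 alone. Rrm1 was at 318 ± 28.9 and 169.6 ± 14.3 CPM at 21% O2 and at 178 ± 4.60 and 329 ± 6.34 CPM at 0.5% O2, with a difference of 1.78 (SE 0.12, edgeR adjusted p = 7.07e-09). The share of mitochondrial counts was 0.573% to 0.720% in osteoblast libraries at 0.5% O2 and 0.955% to 1.36% at 21% O2, and the part of this in the result was not tested.

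Sterol genes showed the reverse, with 22 of 22 tested lower in the difference (25.3% of all genes) and a median of -1.69, and 22 again with replicates 1 to 3 alone. Hmgcs1 was at 335 ± 27.4 and 318 ± 35.5 CPM in proliferating and osteoblast cultures at 21% O2 (n = 4 each) and at 412 ± 13.2 and 92.7 ± 14.02 CPM at 0.5% O2 (n = 3 each). The difference was -2.09 (SE 0.15, edgeR adjusted p = 1.46e-08). Sqle gave -1.91 (SE 0.11, edgeR adjusted p = 1.68e-09). The proliferating cultures at 0.5% O2 were not lower than those at 21% O2 by mean. The other differentiated cultures were not tested for this difference. In chondrocyte cultures Hmgcs1 was at 127 ± 8.20 CPM at 0.5% O2 (n = 3) and 212 ± 31.9 CPM at 21% O2 (n = 4), and Sqle at 145 ± 12.7 and 139 ± 23.0 CPM. In smooth muscle cultures Hmgcs1 was at 119 ± 17.0 CPM at 0.5% O2 (n = 3) and 204 ± 4.36 CPM at 21% O2 (n = 4), and Sqle went the other way, at 211 ± 8.11 and 158 ± 2.85 CPM. The smooth muscle libraries at 0.5% O2 stood apart, with 13.25% to 14.55% of counts in mitochondrial genes. Of 18 glucocorticoid targets tested, 9 were higher and 1 lower, or 11 and 1 with replicates 1 to 3 alone. Fkbp5 was at 1040.0 ± 35.0 CPM in osteoblast cultures at 0.5% O2 and at 360.2 to 564.3 CPM at 21% O2, while in proliferating cultures it was at 42.1 ± 0.888 and 77.6 ± 8.02 CPM, and the difference was 1.90 (SE 0.18, edgeR adjusted p = 3.4e-07). Of 23 FGF and ERK genes, 8 were higher and 2 lower, or 12 and 5 with replicates 1 to 3 alone. Dusp6 fell less at 0.5% O2, from 128 ± 0.658 to 29.1 ± 2.08 CPM, against 89.8 ± 2.49 to 4.24 ± 0.586 CPM at 21% O2, and its difference was 2.26 (SE 0.12, edgeR adjusted p = 7.01e-10). Of 24 genes of the secretory pathway, 15 were lower and 1 higher, and of 30 collagen genes 13 were lower and 3 higher.

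The chondrocyte cultures at 0.5% O2 are the nearest other differentiated group. They spent 3 days in the osteogenic medium before 7 days as micromasses with TGF-beta3, BMP-2 and dexamethasone. The chondrogenic medium listed 5% serum and no beta-glycerophosphate, against 10% serum and 10 mM in the osteogenic medium. The parts of these differences in the values below cannot be told apart. The osteoblast libraries are shared with the main comparison. Of 14116 genes tested, 8137 (57.6%) differed, 4099 higher in osteoblast cultures (29.0%) and 4038 lower (28.6%). When library totals alone set the scale, 59.2% of the called genes were higher in place of 50.4%. Bone genes went both ways, with 9 of 21 tested mineralisation genes higher in osteoblast cultures and 7 lower, and 4 of 16 osteoblast transcription factors higher and 7 lower. Ibsp was at 63.3 to 75.7 CPM in osteoblast and 457 to 811 CPM in chondrocyte libraries, a difference of -3.23 (SE 0.20, edgeR adjusted p = 1.45e-06). Sp7 was lower in osteoblast cultures too, by a difference of -1.29 (SE 0.17, edgeR adjusted p = 0.000117), and Alpl gave -0.27 (SE 0.18, edgeR adjusted p = 0.226). Alpl passed as lower with no filter (edgeR adjusted p = 0.0253) and without the chondrocyte library numbered 1, at -0.45 (0.00518). Col2a1 was at 70.0 to 72.1 CPM against 194 to 372 CPM, a difference of -1.96 (SE 0.22, edgeR adjusted p = 0.000138).

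Higher in osteoblast cultures were all 17 tested glucocorticoid targets, with a median of 2.84, and the same dexamethasone concentration is listed for both media. Zbtb16 was at 284 to 304 CPM against 17.1 to 51.5 CPM. Of 23 FGF and ERK genes, 18 were higher and 2 lower, with Fgfr2 at 3.02 (SE 0.15, edgeR adjusted p = 1.85e-08) and Dusp6 at 1.46 (SE 0.12, edgeR adjusted p = 5.08e-07). Runx2 was higher by 0.75 (SE 0.10, edgeR adjusted p = 2.13e-05), and Runx1 was lower, at -2.83 (SE 0.10, edgeR adjusted p = 2.67e-10). Of 17 BMP targets and antagonists 12 were higher and 1 lower. The listed BMP-2 concentrations were 100 and 50 ng/ml, and the part of this in the result was not tested. Collagens and their assembly were mostly lower, with 20 of 29 lower and 5 higher, and so was the secretory pathway, with 21 of 24 lower and 1 higher. Mitosis genes hardly separated these cultures, with 2 of 28 higher and 4 lower, and Mki67 gave 0.28 (SE 0.12, edgeR adjusted p = 0.0666). Mki67 passed as higher in osteoblast cultures with no filter (edgeR adjusted p = 0.0104), on library totals alone (0.0168) and without the osteoblast library numbered 2, at 0.43 (0.00952). Of 31 replication genes, 7 were higher and 9 lower. Rrm1 was higher in osteoblast cultures by 1.96 (SE 0.09, edgeR adjusted p = 2.33e-09) and Rrm2 by 0.29 (SE 0.08, edgeR adjusted p = 0.00644). Of 22 sterol genes, 4 were higher and 12 lower, with Hmgcs1 at -0.46 (SE 0.11, edgeR adjusted p = 0.0025).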

How the data were processed

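RNA sequencing of polyadenylated RNA was deposited as a table of whole-number read counts per gene, made by the authors, for 54429 gene identifiers in 28 libraries. The submitters' processing notes name HISAT2 2.0.5, StringTie 1.3.3b, featureCounts 1.5.0-p3 and the genome build mm10. The annotation, the use of strand and the treatment of reads with several matches are not given in the sources used here, so overlapping genes and near-identical copies are uncertain. Per the labels, a stranded kit was used. A further 70 columns of single-library values in 10 comparison tables were not used.

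Groups were taken from the labels. The 6 libraries were fitted with edgeR 4.0.16 (R 4.3.3): filterByExpr (minimum count 10, minimum total 15), TMM scaling, robust quasi-likelihood test, two-sided, Benjamini-Hochberg adjusted p under 0.05 over all 14338 genes tested. The common biological coefficient of variation was 0.0962. Standard errors are the fold change divided by the square root of F. The difference from 21% O2 was an interaction term over 4 groups (14 libraries), and the chondrocyte comparison used its own 6 libraries. Alternatives were DESeq2 1.42.0, limma 3.58.1 (voom), other scalings and filters, a replicate block, 1 fit of all libraries, and leaving out each library. Folds against 0 counts use a floor of 3 counts over the group, and ratios on 1 to 3 counts carry 95% exact intervals that cover counting error only.

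Named genes were list members and, among called genes with groups apart, the 10 largest rises and falls with a mean of at least 10 counts in both groups, the 8 and 5 highest genes with a mean under 10 counts in the other group, and the 10 largest gains and losses of CPM. Predicted, unnamed, mitochondrial, ribosomal protein and pseudogenes were passed over. Some genes that the rule names are not reported here. The comparison, lists, motifs and named genes were chosen with earlier results of these data known. Motifs for glucocorticoid receptor and BMP-Smad sites were also looked at and are not reported. Of the identifiers, 54393 were found in GENCODE M21, the source of positions. Promoters are from RefSeq (GRCm38.p6), and members without an entry were left out of motif shares.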

Additional observations from a re-analysis of the deposited data

Results flagged for a closer look

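All levels here are CPM scaled over the 28 libraries. In groups of 4 libraries, a value was marked when its gap to the nearest other library was large against the range of the group (Dixon's test). Of 38 such groups, over 19 genes at 21% O2, 13 were marked, and 9 of the 13 were in the osteoblast library numbered 4 at 21% O2. Chance marks about 5% of independent groups. These groups share the same libraries, and the genes were chosen with earlier results known, so the marks cannot be weighed against that share. That library was high for bone and cartilage genes, with 45.4 CPM of Sp7 (others 0.670 to 1.36), 40.02 CPM of Alpl (others 1.39 to 2.52), 3.20 CPM of Ibsp (others 0.384 to 0.475) and 775.6 CPM of Col2a1 (others 35.6 to 43.6). It was also high for Rrm2 at 37.1 CPM, Mcm5 at 19.2 CPM and Fgfr2 at 956.1 CPM, and low for Fkbp5 at 360.2 CPM and Hmgcs1 at 265.4 CPM. The other 4 marks were in proliferating libraries at 21% O2. Alpl was at 0.133 CPM in the replicate numbered 3, and in the replicate numbered 4 Phex was at 28.6 CPM, Col2a1 at 0.0700 CPM and Hmgcs1 at 375.8 CPM. The Alpl and Col2a1 values here rest on a few reads.

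The change from proliferating to osteoblast cultures was compared between 0.5% and 21% O2 by an interaction test. Of the 19 genes, 15 had over 3 counts in each of the 4 groups, and 12 of those 15 differed, where 54.2% of all genes tested did. The log2 change at 0.5% O2 minus that at 21% O2 was above 0 for Rrm2 (4.90), Mki67 (3.22), Dusp6 (2.26), Mcm5 (1.99), Fkbp5 (1.90), Phex (1.89), Rrm1 (1.78), Runx2 (1.60) and Vegfa (0.66). It was below 0 for Hmgcs1 (-2.09), Sqle (-1.91) and Runx1 (-0.59). With replicates 1 to 3 of each group alone, a setting added after the data were seen, these 12 passed again, and Sp7 (6.77) and Pfkfb3 (0.50) passed there and not with all libraries. The call for Mcm5 was lost in 3 settings. Its edgeR adjusted p was 0.0261 with all libraries, and then 0.0503 with no filter, 0.0574 without the proliferating library numbered 3 at 0.5% O2 and 0.0512 without the osteoblast library numbered 3 at 0.5% O2, and its difference was 3.02 with replicates 1 to 3 alone. Of the 4 genes with 3 counts or fewer in a group, Zbtb16 passed in both settings (edgeR adjusted p = 0.0303 and 0.00946) and missed with limma-voom (adjusted p = 0.145) and without any 1 of 4 proliferating libraries (edgeR adjusted p = 0.0562 to 0.107), namely replicate 1 at 21% O2 and each of the 3 at 0.5% O2. Alpl passed with replicates 1 to 3 alone and Ibsp with DESeq2 (adjusted p = 0.0211) and limma-voom (adjusted p = 0.00194), and the sizes of these differences are not fixed by the counts.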

How the results depend on the processing

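Of the counts that answer a comparison or describe a list, 577 values under an alternative stayed within 1.5 times the reported one and 18 moved further. Genes changed over all genes numbered 8945 to 10984 under the other tests, scalings and filters, and 9570 to 10416 when a library was left out (10227 reported), and those past a log2 change of 1 numbered 3555 with 10 counts in every library, 5698 with no filter and 4932 to 5139 with a library left out (4912 reported). The difference from 21% O2 passed in 7748 to 9297 genes with a library left out and in 9550 with replicates 1 to 3 alone (8394 reported), and the chondrocyte comparison in 7187 to 8023 (8137 reported). Requiring 10 counts in every library tests fewer genes and removes those absent from proliferating cells. It lowered the rising members to 7 osteoblast transcription factors, 9 mineralisation genes, 5 chondrocyte genes, 10 Wnt genes and 1 secreted Wnt inhibitor, and the falling epithelial genes to 1, which was also 1 with all 28 libraries in 1 fit. The single endothelial call became 0 with DESeq2, limma-voom, library size alone, the replicate block and all 28 libraries, 2 with no filter, and 0 to 1 with a library left out. On library size alone, 33 oxidative phosphorylation genes were lower, and 6 genes changed sign: Smad1 (-0.20), Smad5 (-0.0351), Kdm3a (-0.0200), Calr (-0.17), Sod2 (-0.21) and Prdx2 (-0.0754). Other list members past the threshold in 1 setting and not in another came to 163 values lost and 99 gained. Replicate numbers did not pair the libraries: residuals of same-numbered libraries correlated at -0.0344, 0.0539 and -0.000187. With the replicate block, 10061 genes changed in the main comparison, 9438 in the difference from 21% O2 and 7859 against chondrocyte cultures. Genes at a few counts in proliferating libraries have changes whose size this depth does not fix.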
